A study of Homo sapiens with 12 samples.

Results

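SPP1, which encodes osteopontin, and 7 genes for its cell-surface receptors were followed in embryoid bodies depleted of METTL14. The receptor genes were CD44 and the integrin subunit genes ITGAV, ITGB1, ITGB3, ITGB5, ITGA5 and ITGA9. These 8 genes are 8 of the 65969 identifiers in the deposited table. SPP1 was chosen because its level was far lower in the knockdown libraries, so its difference between knockdown and control is described here without a test. The receptor genes were chosen by name, and their differences were tested. A filter on low counts kept 24898 identifiers and 7 of the 8 genes, and ITGB3 was the gene that did not pass.

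Osteopontin is a secreted, phosphorylated glycoprotein of bone matrix and body fluids that also acts on cells as a cytokine. It binds integrins, which are pairs of an alpha and a beta subunit, through an arginine-glycine-aspartate (RGD) motif read by αvβ1, αvβ3, αvβ5 and α5β1. Cleavage by thrombin exposes an adjoining stretch that α9β1 binds without RGD, and CD44, the main hyaluronan receptor, has been described as a further receptor. In early embryos osteopontin is known from trophoblast and from primitive endoderm, where POU5F1 and SOX2 act on its gene.

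The libraries hold total RNA from embryoid bodies, the aggregates that pluripotent cells form when they differentiate in suspension. The cells were H1 and MEL1, both established human embryonic stem cell lines. Each was transduced with a lentiviral vector for 1 doxycycline-inducible short hairpin RNA, either KD1, KD2 or KD3 against METTL14 or the control hairpin SCR, and selected with puromycin. METTL14 is a subunit of the enzyme complex that writes m6A, a methyl mark on adenosine, into RNA. Every group, SCR included, carried a vector and received doxycycline at 2 µg/ml for 10 days, starting from 500 cells per microwell. There were 2 libraries each of H1 SCR, H1 KD1, H1 KD2 and H1 KD3, 2 of MEL1 KD1, and 1 each of MEL1 SCR and MEL1 KD2. The labels do not say whether the libraries of a group came from separate cultures, so p-values measure only the spread between these libraries.

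The 2 receptor-binding stretches of osteopontin lie side by side in the SPP1 message, so 1 short run of bases shows both. They are printed from transcript SPP1-201 of GENCODE release 29 (GRCh38), bases 572 to 616, with the RGD codons in capitals in the first line and the codons of the adjoining stretch in capitals in the second.
RGD codons: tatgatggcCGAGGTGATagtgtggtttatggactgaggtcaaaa
Adjoining codons: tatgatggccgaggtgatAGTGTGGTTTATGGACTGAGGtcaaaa
The RGD codons begin at base 581 and the adjoining codons at base 590. The estimated counts are per gene, so they do not tell spliced or cleaved forms of osteopontin apart. SPP1 itself (ENSG00000118785) lies at chr4:87975650-87983426 on the plus strand in that annotation, and SPP1-201 is 1581 bases long with its coding sequence starting at base 149.

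Because the hairpins target an m6A writer, the letters GGACT, a common form of the sequence in which m6A is written, were searched on the sense strand of the same transcript. There were 2 matches, both in the coding sequence and both shown with GGACT in capitals; the second lies within the adjoining codons above.
GGACT match at bases 396 to 420: tggacagccaGGACTccattgactc
GGACT match at bases 592 to 616: tgtggtttatGGACTgaggtcaaaa
Among 1514 tested genes whose transcript length was within 10% of that of SPP1-201, 83% had at least 1 match and 51.9% had at least 2. Methylation was not measured in these libraries, and the matches are a description of the sequence only.

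The targeted gene was checked first. METTL14 stood at 29.8 and 43.8 CPM (read counts scaled to a common library size) with H1 SCR and at 8.89 to 17.7 CPM, median 12.3, in the 6 H1 knockdown libraries. It was 49.9 CPM in MEL1 SCR and 5.94, 8.03 and 8.95 CPM in the MEL1 knockdown libraries, so no knockdown library reached a control library of its line. Library totals were 15963241 estimated counts for MEL1 SCR and 36609628 to 43508287 for the others. The libraries also differed in how gene levels followed GC content: across 15601 genes, Spearman's rho between a gene's GC content and its deviation from its line's mean ran from -0.565 (MEL1 SCR) to 0.564 (the second H1 KD1 library).

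The ligand is described first. SPP1 stood at 19.7 and 21.7 CPM in the H1 SCR libraries. With knockdown it stood at 1.8 and 2.3 CPM for H1 KD1, at 1.5 and 2.44 CPM for H1 KD2, and at 5.05 and 2.65 CPM for H1 KD3. All 6 H1 knockdown libraries lay far below both H1 controls, and the first H1 KD3 library was the highest of the 6. In MEL1, SPP1 stood at 95.1 CPM with SCR, at 56.2 and 68.5 CPM with KD1 and at 30.8 CPM with KD2. Every MEL1 library, knockdown or not, had more SPP1 than any H1 library.

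The H1 knockdown libraries averaged 2.62 ± 1.26 CPM (SD, n = 6), which is 12.7% of the H1 SCR mean, with single libraries between 7.23% and 24.4%. The MEL1 knockdown libraries averaged 51.8 ± 19.2 CPM (SD, n = 3), which is 54.5% of the MEL1 SCR library, with single libraries between 32.4% and 72%. On the log2 scale the fitted difference was -3.05 (SE 0.21) for the average of the H1 hairpins and -2.42 (SE 0.39) over both lines. These values chose the gene, so they carry no test. Without the MEL1 SCR library the value over both lines was -2.98. In such bulk samples, fewer cells that express SPP1 and less SPP1 RNA per cell cannot be told apart.

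**Figure D1:**
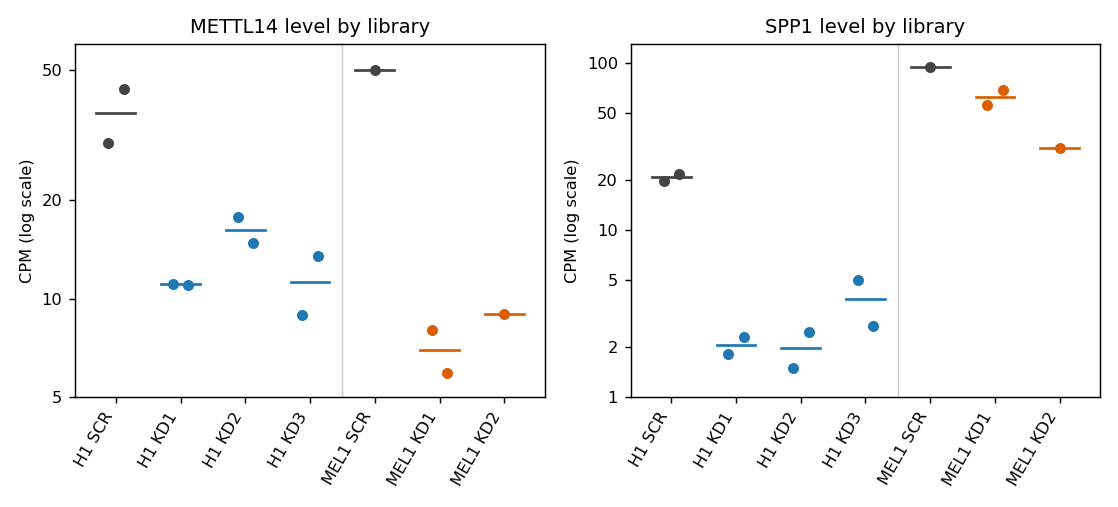
Level of METTL14 (left) and SPP1 (right) in CPM on a log axis for each of the 12 libraries, with 1 point per library and a bar at each group's mean (grey, SCR; blue, H1 knockdown; orange, MEL1 knockdown). SPP1 is at 19.7 and 21.7 CPM in H1 SCR against 1.5 to 5.05 CPM with the H1 hairpins, and at 95.1 CPM in MEL1 SCR against 30.8 to 68.5 CPM with the MEL1 hairpins.

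The 3 hairpins gave log2 differences of -3.33 (SE 0.31) for KD1, -3.40 (SE 0.31) for KD2 and -2.43 (SE 0.30) for KD3 in H1, all against the same 2 control libraries. KD1 and KD2 overlapped in their values and KD3 lay above both. The rule did not use the differences among hairpins, so these were tested. SPP1 was 0.90 lower on the log2 scale in KD1 than in KD3 (SE 0.32, edgeR adjusted p = 0.142) and 0.97 lower in KD2 than in KD3 (SE 0.32, edgeR adjusted p = 0.261). The joint edgeR test of any difference among the 3 hairpins gave an adjusted p of 0.16. METTL14 itself stood at 11.0, 16.2 and 11.2 CPM on average with KD1, KD2 and KD3, so the hairpin with the most METTL14 left was not the one with the most SPP1.

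The order of the 7 group means for SPP1 was MEL1 SCR, MEL1 KD1, MEL1 KD2, H1 SCR, H1 KD3, H1 KD1 and H1 KD2. Neighbours in this order did not overlap, except for H1 KD1 and H1 KD2. MEL1 SCR and MEL1 KD2 are 1 library each, so their place has no spread of its own, and in the fits they are assumed to vary like the other groups.

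The level of SPP1 in one line against the other did not choose it and was tested. Part of that difference comes from the low H1 KD1 and KD2 values, which did enter the choice. The test is thus not independent of the choice. At matched hairpins (SCR, KD1 and KD2), SPP1 was higher in MEL1 by 3.70 on the log2 scale (SE 0.19, edgeR adjusted p = 1.97e-07), or 13-fold. The SCR libraries differed 4.59-fold and the knockdown libraries 25.8-fold by their means. SPP1 stayed past the threshold in all 18 alternatives run for this comparison. The fall of SPP1 with KD1 and KD2 was smaller in MEL1 than in H1 by 2.25 on the log2 scale (SE 0.42). That value is built from the falls that chose the gene, so it too carries no test.

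Markers of several cell types differed between knockdown and control, and their part in the level of SPP1 was not tested. Of 5 endothelial markers (KDR, PECAM1, CDH5, TEK and ERG), summed levels were 161 to 165 CPM with H1 SCR and 67.2 to 91.7 CPM with the H1 hairpins, and 118 CPM with MEL1 SCR and 64.3 to 108 CPM with the MEL1 hairpins. Most of that sum is KDR, a receptor for vascular endothelial growth factor, at 153 and 157 CPM with H1 SCR and 59.6 to 88.2 CPM with the H1 hairpins. Over both lines all 5 values were negative, and 4 were under an unadjusted edgeR p of 0.05, as were 15.7% of all tested genes. KDR was the 1 that edgeR called, at -0.89 on the log2 scale (SE 0.16, edgeR adjusted p = 0.0363), where it called 0.213% of all tested genes. DESeq2 called KDR and PECAM1, among 1246 of 24898 tested genes. In the H1 average, 4 of 6 neural progenitor markers rose and 0 fell, where 2.23% of all tested genes rose, and 3 of 5 pluripotency markers (POU5F1, NANOG and ZFP42) fell and 0 rose, where 4.93% fell. The NANOG values were -2 with KD1 and -1.11 with KD2 on the log2 scale, but 0.22 with KD3. With KD3 it stood at 8.6 and 6.79 CPM, against 7.04 and 6.12 CPM with H1 SCR. Summed neural progenitor markers went from 907 to 955 CPM with H1 SCR to 996 to 1200 CPM with the H1 hairpins, but from 647 CPM with MEL1 SCR to 446 to 530 CPM with the MEL1 hairpins. In MEL1 KD1, where SPP1 was below its control, POU5F1 (798 and 879 CPM) and NANOG (77 and 81.9 CPM) were above theirs (496 and 44.9 CPM). In the MEL1 KD2 library, where SPP1 was lower still, POU5F1 (240 CPM) and NANOG (32.8 CPM) were below their controls. ZFP42 stood at 166 CPM with MEL1 SCR, at 109 CPM in both KD1 libraries and at 59.4 CPM with KD2. Of 8 macrophage markers, a cell type known for osteopontin, summed levels stayed between 1.19 and 10.6 CPM in all libraries. PTPRC, SPI1 and TYROBP had too few counts to be tested, and 1 of the 5 tested fell in the H1 average.

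Between the lines the marker lists differed widely. At matched hairpins, 5 of 5 tested trophoblast markers and 5 of 5 pluripotency markers were higher in MEL1, and 6 of 6 neural progenitor markers were lower, where 23% of all tested genes were higher and 26.2% lower. PAX6, a transcription factor of the neural plate, ranged from 0.204 to 2.92 CPM in MEL1 and from 95.8 to 224 CPM in H1. Summed trophoblast markers ranged from 64.6 to 186 CPM in MEL1 and from 19.3 to 25.7 CPM in H1. Most of that sum is TFAP2A, at 46.1 to 160 CPM in MEL1 and 14.3 to 21.9 CPM in H1. CGA was at most 1.29 CPM, and CGB3 had too few counts to be tested. Of the markers of hepatic and yolk sac endoderm, 3 of 6 tested were also higher in MEL1. Of the pluripotency markers, LIN28A was at 827 to 1820 CPM in the 12 libraries. POU5F1 and NANOG were at 21.3 to 62.2 and 1.52 to 8.6 CPM in H1 and at 240 to 879 and 32.8 to 81.9 CPM in MEL1.

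Per kilobase of its reference transcript, the only scale on which genes are compared here, ITGB1 was by far the most abundant receptor gene, at 117 ± 18.6 CPM per kb (SD, n = 12). ITGB5 followed at 28.9 ± 9.77, ITGA5 at 25.1 ± 9.58 and ITGAV at 8.84 ± 4.01 CPM per kb. CD44 stood at 0.772 ± 0.639, ITGA9 at 0.351 ± 0.317 and ITGB3 at 0.0204 ± 0.0148 CPM per kb. Within the SCR groups the order of ITGA5 and ITGB5 was the other way round, with ITGA5 at 37.8 and ITGB5 at 33.1 CPM per kb in H1 SCR and at 14.5 and 12.3 in MEL1 SCR. SPP1 was at 4.52 ± 5.35 CPM per kb in H1 (SD, n = 8) and 39.6 ± 16.9 in MEL1 (SD, n = 4).

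**Figure D2:**
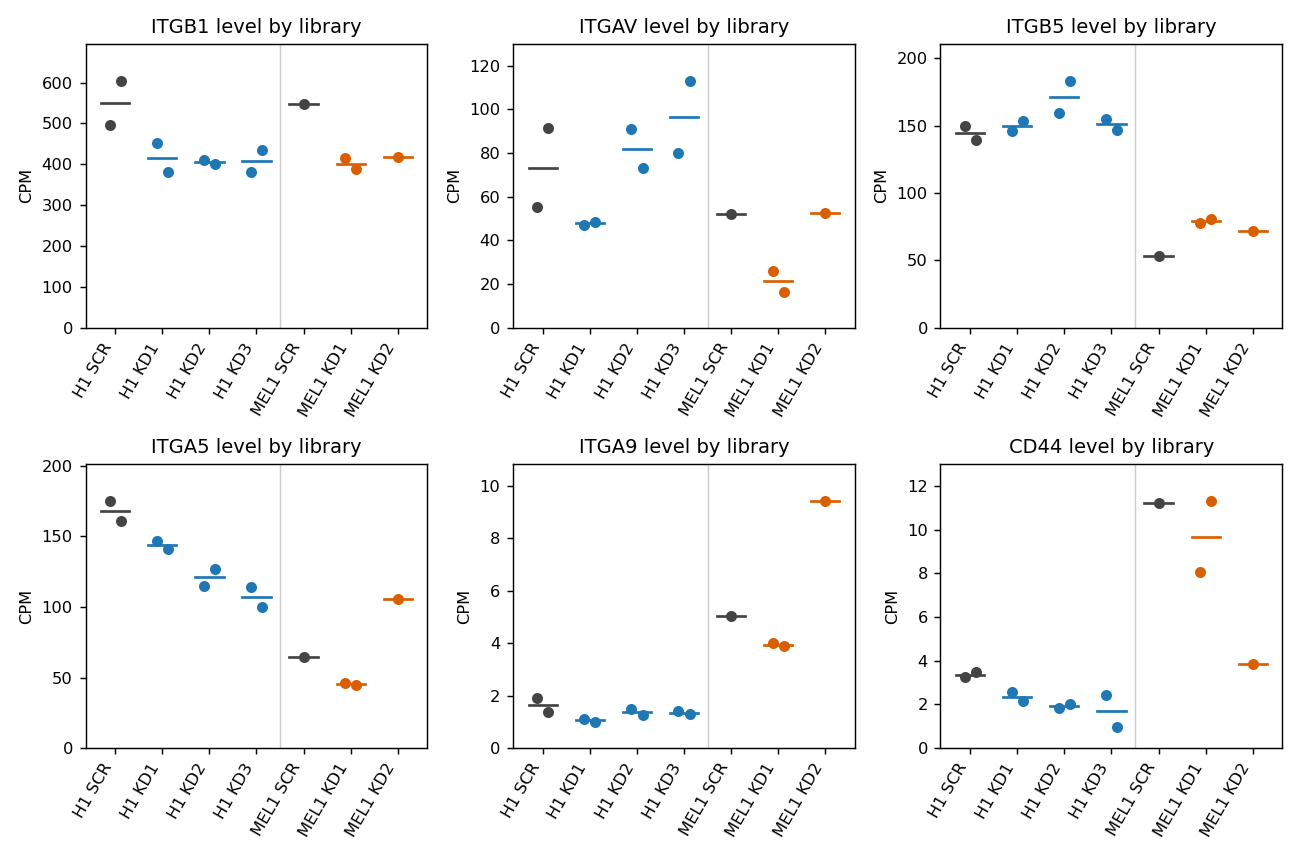
Level in CPM of the 6 tested receptor genes in each of the 12 libraries, on linear axes from 0, with 1 point per library and a bar at each group's mean (grey, SCR; blue, H1 knockdown; orange, MEL1 knockdown). ITGB1 lies between 381 and 452 CPM in the 9 knockdown libraries and between 496 and 604 CPM in the 3 SCR libraries. ITGB5, ITGA9 and CD44 separate the lines more than the hairpins, while ITGA5 overlaps between the lines.

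ITGB1, the β1 subunit (ENSG00000150093, chr10:32900319-33005792) shared by α5β1, α9β1 and αvβ1, was lower with every hairpin. It stood at 496 and 604 CPM with H1 SCR, at 452 and 381 CPM with KD1, at 410 and 401 CPM with KD2, and at 381 and 434 CPM with KD3. In MEL1 it stood at 548 CPM with SCR, at 415 and 389 CPM with KD1 and at 418 CPM with KD2. All 9 knockdown libraries thus lay below all 3 SCR libraries, at 74.5% of the SCR mean in H1 and 74.4% in MEL1.

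In the average of the H1 hairpins, ITGB1 fell by 0.42 on the log2 scale (SE 0.11, edgeR adjusted p = 0.0395). Over both lines the difference was -0.43 (SE 0.10, edgeR adjusted p = 0.0775), just short of the threshold, and DESeq2 put it at -0.44 with an adjusted p of 0.000163. The call in H1 was lost in 7 of the 12 fits that left out 1 library: without the second H1 SCR library the value was -0.28 (edgeR adjusted p = 0.358), and without each of the 6 H1 knockdown libraries in turn the adjusted p was 0.0516 to 0.084. Against H1 SCR the single hairpins gave -0.40 (SE 0.14, edgeR adjusted p = 0.0822) with KD1, -0.44 (SE 0.14, edgeR adjusted p = 0.138) with KD2 and -0.43 (SE 0.14, edgeR adjusted p = 0.111) with KD3. With the trend on GC content and length removed, KD2 (-0.47, edgeR adjusted p = 0.0185) and KD3 (-0.51, edgeR adjusted p = 0.00882) passed, and DESeq2 called all 3 (adjusted p = 0.0307, 0.0244 and 0.0249).

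Between the lines ITGB1 did not differ detectably, with a difference of 0.00 (SE 0.09) at matched hairpins and a difference of 0.00 (SE 0.20) between the lines in the effect of knockdown.

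ITGA5, the α5 subunit (ENSG00000161638, chr12:54395261-54419460) that pairs with β1 as the fibronectin receptor, was graded across the H1 groups. It stood at 175 and 161 CPM with SCR, at 147 and 141 CPM with KD1, at 115 and 127 CPM with KD2, and at 114 and 100 CPM with KD3, with no overlap between SCR and any hairpin. It fell by 0.45 on the log2 scale in the H1 average (SE 0.09, edgeR adjusted p = 0.0158) and by 0.65 with KD3 (SE 0.11, edgeR adjusted p = 0.0136). KD2 gave -0.47 (SE 0.11, edgeR adjusted p = 0.0602) and KD1 gave -0.22 (SE 0.11, edgeR adjusted p = 0.217). Both passed once the GC and length trend was removed, at -0.60 for KD2 (edgeR adjusted p = 0.00508) and -0.45 for KD1 (edgeR adjusted p = 0.00923). KD2 also passed with DESeq2 (adjusted p = 0.00668) and without a filter on low counts (edgeR adjusted p = 0.0274). The reference transcript of ITGA5 has a GC content of 58.7%. Spearman's rho with GC content was 0.303 and 0.564 in the H1 KD1 libraries, -0.218 and 0.118 with KD2, and 0.0104 and -0.511 with KD3. The part of GC content in the order of the hairpins was not tested.

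The hairpins were compared with each other for ITGA5 as well. KD1 was higher than KD3 by 0.42 on the log2 scale (SE 0.11, edgeR adjusted p = 0.0519), and the joint test among the 3 hairpins gave an edgeR adjusted p of 0.104. MEL1 did not repeat the H1 order: ITGA5 stood at 64.5 CPM with SCR, at 45.8 and 44.9 CPM with KD1 and at 106 CPM with KD2, above its control. Over both lines the value was -0.29 (SE 0.22, edgeR adjusted p = 0.551). The H1 average call was lost without the first H1 SCR library (edgeR adjusted p = 0.108) and without the second (edgeR adjusted p = 0.101). The KD3 call was lost without the first H1 SCR library (edgeR adjusted p = 0.0731) or the second H1 KD3 library (edgeR adjusted p = 0.129).

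ITGAV, the αv subunit (ENSG00000138448, chr2:186590065-186680901) shared by several RGD-binding receptors of osteopontin, varied widely within groups. It stood at 55.3 and 91.3 CPM with H1 SCR, at 47.1 and 48.6 CPM with KD1, at 90.9 and 73.2 CPM with KD2, and at 80 and 113 CPM with KD3. In MEL1 it stood at 51.9 CPM with SCR, at 26.2 and 16.2 CPM with KD1 and at 52.4 CPM with KD2. KD1 libraries were the lowest in each line, while KD2 and KD3 libraries overlapped the controls or exceeded them.

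The H1 KD1 difference in ITGAV was -0.61 (SE 0.29, edgeR adjusted p = 0.221), and with the GC and length trend removed it was -0.43 (SE 0.13, edgeR adjusted p = 0.0497). Without a filter on low counts its adjusted p was 0.00101. The reference transcript of ITGAV has a GC content of 38.2%, against 40.0% for ITGB1 and 41.2% for SPP1. The KD1 libraries had GC trends of 0.303 and 0.564 in H1 and of 0.357 and 0.435 in MEL1. A positive value means that genes rich in GC read higher. The part of GC content in the ITGAV difference was not tested. Over both lines the value was -0.23 (SE 0.35, edgeR adjusted p = 0.804), and in the H1 average it was -0.02, which turned to 0.01 with upper-quartile scaling.

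The beta partners of αv followed other patterns. ITGB5, the β5 subunit (ENSG00000082781, chr3:124761948-124901418), stood at 150 and 139 CPM with H1 SCR and at 146 to 183 CPM, median 154, in the 6 H1 knockdown libraries. In MEL1 it stood at 53.6 CPM with SCR and at 77.4, 80.8 and 71.6 CPM with the hairpins. The 3 MEL1 knockdown libraries were all above their control, while in H1 the ranges overlapped. Over both lines the value was 0.24 (SE 0.11, unadjusted p = 0.0413, edgeR adjusted p = 0.295), and the difference between the lines in the knockdown effect, 0.35 (SE 0.16), had an edgeR adjusted p of 0.298.

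ITGB3, the β3 subunit (ENSG00000259207, chr17:47253846-47311816) known from platelets and osteoclasts, was close to the detection limit, with 0 to 7 counts per library and 38 counts in all 12. It had 0 counts in 3 libraries, and its exons overlap those of AC068234.1 on the same strand, so reads of the 2 genes may be divided between them. No fold change is given for it. RNA of αvβ3, the best known osteopontin receptor, was thus hardly detected on its beta side in these embryoid bodies.

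CD44 (ENSG00000026508, chr11:35138870-35232402) was low in H1 and higher in MEL1. It stood at 3.23 and 3.48 CPM with H1 SCR, at 2.55 and 2.16 CPM with KD1, at 1.82 and 2.01 CPM with KD2, and at 2.42 and 0.967 CPM with KD3. All 6 H1 knockdown libraries lay below both controls. In MEL1 it stood at 11.2 CPM with SCR, at 8.06 and 11.3 CPM with KD1 and at 3.85 CPM with KD2, so KD1 overlapped the control level. The H1 average gave -0.77 (SE 0.28, edgeR adjusted p = 0.123) and both lines together -0.68 (SE 0.30, edgeR adjusted p = 0.279). Without the first H1 KD3 library the H1 value was -1.04 (edgeR adjusted p = 0.0252), and without a filter on low counts it was -0.77 (edgeR adjusted p = 0.0202). The second H1 KD3 library has the lowest CD44 value of the 12.

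ITGA9, the α9 subunit (ENSG00000144668, chr3:37452115-37823514) that binds thrombin-cleaved osteopontin, stood at 1.9 and 1.38 CPM with H1 SCR and at 1.01 to 1.48 CPM, median 1.28, in the 6 H1 knockdown libraries. In MEL1 it stood at 5.04 CPM with SCR, at 3.99 and 3.9 CPM with KD1 and at 9.42 CPM with KD2. Control and knockdown ranges overlapped in H1, and MEL1 KD2 was above its control, as it was for ITGA5. Over both lines the value was -0.19 (SE 0.28, edgeR adjusted p = 0.795). Exons of ITGA9 overlap those of ITGA9-AS1 on the other strand, which stood at 1.43 to 3.4 CPM in MEL1 and 4.73 to 7.22 CPM in H1, and the strand setting of the counting is not given in the sources used here.

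Counted together, 0 of the 6 tested receptor genes passed over both lines by edgeR, where 0.213% of all tested genes did. CD44, ITGB1 and ITGB5 were under an unadjusted p of 0.05 there, as were 15.7% of all genes. DESeq2 called ITGB1 there, among 1246 of 24898 tested genes. In the H1 average, 2 of 6 fell (ITGB1 and ITGA5) and 0 rose, against 4.93% and 2.23% of all tested genes and 7.16% in either direction. For the single H1 hairpins, edgeR called 0 of 6 with KD1 (11.1% of all genes), 0 of 6 with KD2 (1.54%) and 1 of 6, ITGA5, with KD3 (2.98%). Unadjusted p-values under 0.05 were found for ITGB1 and ITGA9 with KD1 (26.6% of all genes), for CD44, ITGB1, ITGB5 and ITGA5 with KD2 (16.1%) and for CD44, ITGB1 and ITGA5 with KD3 (19%). DESeq2 called ITGB1 with each hairpin and ITGA5 with KD2 and KD3. Of 24898 tested genes it called 3591 with KD1, 1149 with KD2 and 1675 with KD3. These comparisons share the 2 H1 SCR libraries.

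Among the 3 H1 hairpins, 0 of the 7 tested genes differed in edgeR's joint test, against 3.54% of all tested genes. SPP1, ITGAV and ITGA5 were under an unadjusted p of 0.05, as were 20% of all genes. DESeq2 called those 3, among 2224 of 24898 tested genes. SPP1 and ITGAV also passed without a filter on low counts, among 3384 of 40154 genes. ITGAV passed with the trend on GC content and length removed, among 1800 of 24898 genes. For the difference between the lines in the knockdown effect, edgeR and DESeq2 called 0 of the 6 tested receptor genes. Of all tested genes, edgeR called 0.598% there and DESeq2 called 751 of 24898. ITGA5 was under an unadjusted p of 0.05, as were 17.2% of all genes.

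**Figure D3:**
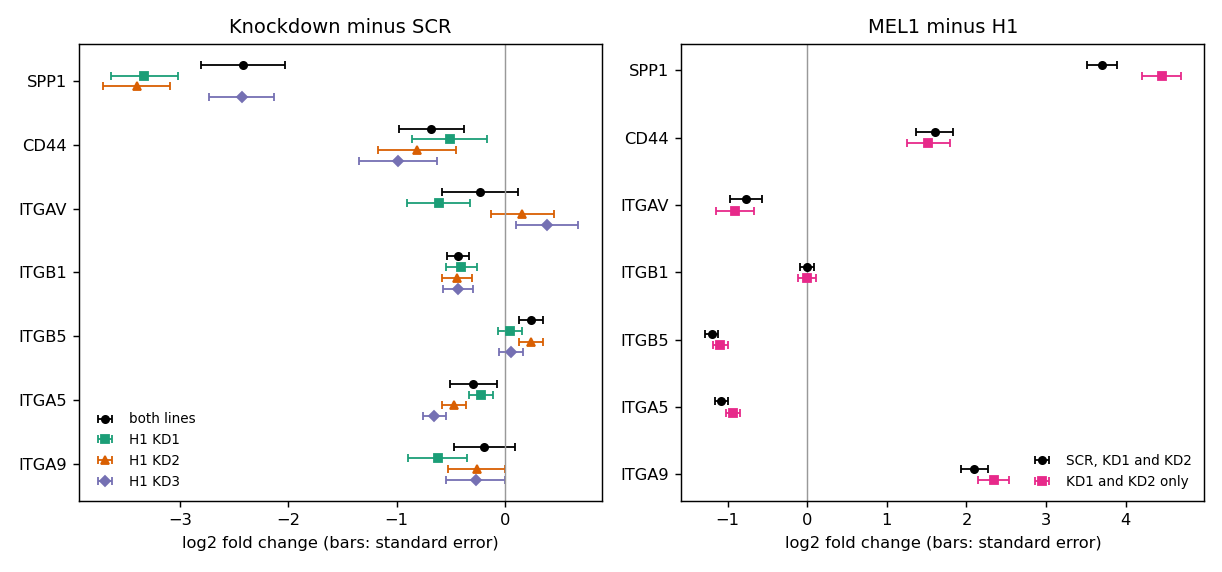
Log2 fold changes with standard errors as bars for SPP1 and the 6 tested receptor genes, on the left for knockdown minus SCR (over both lines and for each H1 hairpin) and on the right for MEL1 minus H1 (at matched SCR, KD1 and KD2, and in KD1 and KD2 alone). SPP1 lies at -2.42 over both lines while the receptor genes lie between -0.68 and 0.24, and between the lines SPP1, CD44 and ITGA9 are positive and ITGAV, ITGB5 and ITGA5 negative.

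More of these genes were called between the cell lines than between knockdown and control. At matched hairpins 6 of the 7 tested genes differed between MEL1 and H1, against 49.1% of all tested genes. SPP1 is 1 of these 6, and part of its difference comes from the values that chose it. SPP1, CD44 and ITGA9 were higher in MEL1, where 23% of all genes were, and ITGAV, ITGB5 and ITGA5 were lower, where 26.2% were. CD44 was higher by 1.60 (SE 0.23, edgeR adjusted p = 0.000145) and ITGA9 by 2.10 (SE 0.17, edgeR adjusted p = 1.69e-06). CD44 ranged from 3.85 to 11.3 CPM in MEL1 and from 0.967 to 3.48 CPM in H1. ITGA9 ranged from 3.9 to 9.42 CPM in MEL1 and from 1.01 to 1.9 CPM in H1. ITGB5 was lower in MEL1 by 1.20 (SE 0.08, edgeR adjusted p = 2.8e-07), at 53.6 to 80.8 CPM against 139 to 183 CPM in H1.

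ITGA5 was lower in MEL1 by a log2 difference of -1.08 (SE 0.08, edgeR adjusted p = 6.52e-07) and ITGAV by -0.77 (SE 0.20, edgeR adjusted p = 0.0117). Both overlapped between the lines, since ITGA5 in MEL1 KD2 (106 CPM) exceeded the lowest H1 library (100 CPM) and ITGAV in MEL1 SCR and KD2 exceeded the H1 KD1 libraries. In KD1 and KD2 alone, without the single MEL1 SCR library, the values were 4.45 for SPP1, 1.52 for CD44, 2.34 for ITGA9, -0.91 for ITGAV, -1.09 for ITGB5 and -0.93 for ITGA5. The line with more osteopontin RNA therefore had more RNA for CD44 and α9 and less for αv, β5 and α5, and no detectable difference in β1.

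Other genes of the pathway were taken from named lists. The counts for each list are to be read against the shares of all tested genes. Over both lines edgeR called 0.213% of all tested genes, and 15.7% were under an unadjusted p of 0.05. In the H1 average 23.2% were under an unadjusted p of 0.05. DESeq2 called 1246 of 24898 genes over both lines and 2696 in the H1 average. Of 20 other integrin subunits, 17 were tested and 0 were called over both lines by edgeR, with 5 under an unadjusted p of 0.05 and 1 (ITGA2B) called by DESeq2. Averaged over the H1 hairpins, 2 rose and 2 fell, with a median of 0.13 over the 17 against 0.01 over all tested genes, of which 2.23% rose and 4.93% fell. ITGA2B, the platelet αIIb chain, rose by 0.79 (SE 0.15, edgeR adjusted p = 0.0168) from 3.92 and 3.58 CPM with SCR to 4.41 to 10 CPM. ITGA7, a laminin-binding chain of muscle, rose by 0.51 (SE 0.11, edgeR adjusted p = 0.0222). ITGAE fell by 0.60 (SE 0.13, edgeR adjusted p = 0.022).

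ITGA8, the α8 chain whose heterodimer with β1 also binds osteopontin through RGD, fell by 1.5 on the log2 scale (SE 0.19, edgeR adjusted p = 0.00289). Its values were 15.2 and 16 CPM with H1 SCR, 9.83 to 11.3 CPM with KD1 and KD2, and 1.53 and 1.51 CPM with KD3. In H1 the value was -3.35 with KD3 (edgeR adjusted p = 0.000445), but -0.55 with KD1 and -0.58 with KD2 did not pass (edgeR adjusted p = 0.179 and 0.274). MEL1 moved the other way, from 1.98 CPM with SCR to 8.87, 4.71 and 16.2 CPM with the hairpins. The difference between the lines in the effect of KD1 and KD2 was 2.98 (edgeR adjusted p = 0.0228), with 1 MEL1 SCR library. ITGA6, ITGA3 and ITGA2 were the most abundant of the rest, and their H1 averages of -0.07, 0.17 and 0.38 did not pass (edgeR adjusted p = 0.805, 0.409 and 0.362).

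Of 15 other ligands of these receptors, 14 were tested, with 0 calls over both lines by edgeR and by DESeq2 and 1 gene under an unadjusted p of 0.05. Averaged over the H1 hairpins, 1 rose and 1 fell, at a median of 0.00 over the 14, against the same 2.23% and 4.93% of all genes. FN1, fibronectin, the main ligand of α5β1, fell by 0.85 (SE 0.10, edgeR adjusted p = 0.00235), from 826 and 856 CPM to 382 to 571 CPM, with no overlap. EDIL3, an RGD protein that binds αvβ3, rose by 1.01 (SE 0.16, edgeR adjusted p = 0.00795), from 11.6 and 11.3 CPM to 17.8 to 31.5 CPM. In MEL1 FN1 stood at 273 CPM with SCR and at 181, 150 and 378 CPM with the hairpins. EDIL3 in MEL1 stood at 40.2 CPM with SCR, at 33.1 and 21.5 CPM with KD1 and at 40.8 CPM with KD2. The 4 relatives of SPP1 in the SIBLING gene family (IBSP, DMP1, MEPE and DSPP) had too few counts to be tested, with a mean of at most 0.0292 CPM.

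Of 12 genes of hyaluronan turnover and CD44 biology, all tested, 0 were called over both lines by edgeR, with 3 under an unadjusted p of 0.05 and 2 (HAS3 and MSN) called by DESeq2. In the H1 average 2 of 12 rose and 2 of 12 fell at a median of -0.09, against 2.23% and 4.93% of all genes. HAS3, a hyaluronan synthase, fell by 1.02 (SE 0.12, edgeR adjusted p = 0.00235), from 49 and 50.1 CPM to 18.9 to 31.7 CPM. In MEL1 it stood at 42 CPM with SCR, at 43.7 and 40.5 CPM with KD1 and at 23.7 CPM with KD2. HAS2, another synthase, rose by 0.70 (SE 0.19, edgeR adjusted p = 0.0484), and its effect in MEL1 was lower than in H1 by a log2 difference of -2 (edgeR adjusted p = 0.0262). MSN, moesin, which links CD44 to actin, fell by 0.44 (SE 0.09, edgeR adjusted p = 0.0183). ESRP1, a splicing factor that acts on CD44, rose by 0.54 (SE 0.14, edgeR adjusted p = 0.0407).

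Of 15 genes that signal from integrins at adhesion sites, all tested, 0 were called over both lines by edgeR, with 2 under an unadjusted p of 0.05 and 2 (VCL and FERMT2) called by DESeq2. Over the H1 hairpins, 1 of 15 fell and 0 rose at a median of -0.15, which is near the 4.93% of all genes that fell. That 1 was VCL, vinculin, which fell by 0.45 (SE 0.09, edgeR adjusted p = 0.0161), from 369 CPM in both H1 SCR libraries to 224 to 309 CPM. In MEL1 it went from 396 CPM to 234 to 261 CPM, and over both lines the value was -0.53 (SE 0.11, edgeR adjusted p = 0.0558). Of 9 enzymes that act on osteopontin, 8 were tested and 0 were called over both lines or in the H1 average by edgeR, with 1 under an unadjusted p of 0.05 in each (ACP5). DESeq2 called 0 over both lines and 1, ACP5, in the H1 average. MMP2, FAM20C and ACP5 were the most abundant of these.

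Of 10 transcription factors described as acting on SPP1, 0 were called over both lines by edgeR or DESeq2, with 0 under an unadjusted p of 0.05. In the H1 average 1 of 10 rose and 1 of 10 fell at a median of 0.15, against 2.23% and 4.93% of all genes. POU5F1, the pluripotency factor OCT4, fell by 1.13 (SE 0.21, edgeR adjusted p = 0.0191), from 62.2 and 58.6 CPM to 21.3 to 36.7 CPM. SOX2, its partner and also a neural progenitor factor, rose by 0.46 (SE 0.11, edgeR adjusted p = 0.0313), from 436 and 417 CPM to 512 to 749 CPM. MEL1 went the other way for SOX2, from 428 CPM with SCR to 329, 323 and 233 CPM. The effect of KD1 and KD2 on SOX2 differed between the lines by -0.98 (SE 0.19, edgeR adjusted p = 0.0483). POU5F1 in MEL1 went from 496 CPM to 798 and 879 CPM with KD1 and 240 CPM with KD2. The effect of KD1 and KD2 on POU5F1 differed between the lines by 1.02 (SE 0.40, edgeR adjusted p = 0.24). POU5F1 was also higher in MEL1 than in H1, by 3.72 on the log2 scale (edgeR adjusted p = 3.79e-07), while SOX2 was lower, at -0.65 (edgeR adjusted p = 0.000104). Of these list genes, only FN1, HAS3 and ITGA8 kept their H1 calls in every fit that left out 1 library.

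The genes whose pattern was most like that of SPP1 were found by Pearson's r of log2 CPM over the 12 libraries, after each line's mean was subtracted, among 14951 genes that averaged 1 CPM or more. The measure rests largely on the contrast that chose SPP1, so it is a description with no test. SPRY4, an inhibitor of receptor tyrosine kinase signalling, was the nearest at r = 0.978, with 145 and 156 CPM in H1 SCR, 51.9 to 74.8 CPM in the H1 knockdown libraries, 49.3 CPM in MEL1 SCR and 33 to 40.3 CPM in the MEL1 knockdown libraries. Then came MAPRE1 (0.964), ACSL1 (0.949), EPHX1 (0.947), TPM3 (0.943) and AVPR1A (0.935).

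SPP1, SPRY4, MAPRE1, ACSL1, EPHX1 and AVPR1A all had their highest H1 knockdown value in the first H1 KD3 library, and TPM3 did not. Over the 9 knockdown libraries alone, r with SPP1 was 0.946 for EPHX1 and 0.599 for TPM3. The least like were MEG3 (-0.951), ZNF514 (-0.947) and TBC1D3L (-0.937). MEG3, an imprinted noncoding RNA, stood at 3.02 and 3.5 CPM with H1 SCR and at 10.4 to 13.8 CPM with the H1 hairpins. The receptor genes themselves were further off, at 0.71 for ITGB1, 0.663 for CD44, 0.206 for ITGA5, 0.096 for ITGA9, -0.0152 for ITGAV and -0.349 for ITGB5. Over the 9 knockdown libraries alone, r was -0.539 for ITGB1, 0.499 for CD44, -0.643 for ITGA5, -0.498 for ITGA9, -0.307 for ITGAV and 0.266 for ITGB5, so only CD44 and ITGAV kept their sign.

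**Figure D4:**
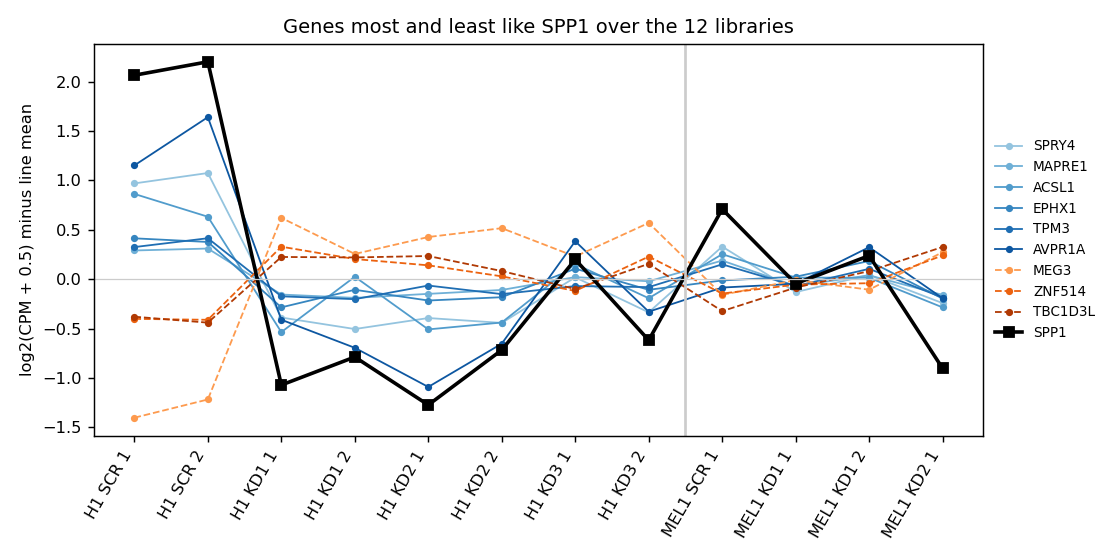
Log2(CPM + 0.5) minus the line's mean for SPP1 (black), the 6 genes most like it (blue) and the 3 least like it (orange, dashed) in each of the 12 libraries; lines only join the points of a gene, and the grey bar parts H1 from MEL1. SPP1 has the widest swing, and r with SPP1 is 0.935 to 0.978 for the 6 over the 12 libraries and 0.599 to 0.946 over the 9 knockdown libraries.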

How the data were processed

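The authors deposited estimated counts per Ensembl gene for 12 libraries, made with fastp and kallisto per the submitters' processing notes. Versions, annotation, build and strand setting are not given in the sources used here. Estimated counts divide reads between similar or overlapping genes. Between 14.8% and 20.8% of a library's values were not whole and were rounded. Of 65969 identifiers, 41981 had a symbol; positions and transcripts are from GENCODE release 29. Low counts were filtered with filterByExpr over 7 groups. Libraries were scaled by TMM, and CPM uses the scaled totals. Differences were tested with edgeR 4.0.16 (R 4.3.3, limma 3.58.1) by its robust quasi-likelihood F-test; p-values were adjusted over 24898 genes by the Benjamini-Hochberg method, with a threshold of 0.05. Fold changes are log2, and SE is the log2 fold change over the square root of F. The comparison over both lines took line as a covariate, and the others came from group means. The difference between the lines in the knockdown effect used KD1 and KD2, not KD3. The fits were checked on simulated data. Alternatives were other scalings and filters, DESeq2 1.42.0, a fit that was not robust, group means, H1 libraries by themselves, knockdown libraries only, removal of GC and length trends, and leaving out each library.

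The members, the gene lists and the tests were chosen with earlier results of these data known. Named were METTL14, the 8 genes, list genes called over both lines or in the H1 average (up to 4 a list, by adjusted p over both lines, and up to 3 of the most abundant), and the 6 genes most and 3 least like SPP1. KDR, PAX6, NES, OTX2, SOX1, LHX2, SIX3, TFAP2A, ITGA9-AS1, FERMT2 and AC068234.1 were named after their values were seen. Marker lists covered macrophage, osteoblast, endoderm, trophoblast, endothelium, mesenchyme, neural progenitor and pluripotent cells.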

Additional observations from a re-analysis of the deposited data

Results flagged for a closer look

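Among the 6 H1 knockdown libraries, 8 genes (METTL14 and the 7 tested genes) were checked for a library that stands apart by Dixon's ratio, the gap to the nearest library over the whole range set against the critical value for 6 samples. SPP1 in the first H1 KD3 library stood apart, at 5.05 CPM against 2.65 CPM for the next library and 1.5 CPM for the lowest (ratio 0.675). ITGB5 in the second H1 KD2 library stood apart, at 183 CPM against 159 CPM for the next and 146 CPM for the lowest (ratio 0.65). Chance gives such a result in about 1 in 20 groups. The 6 libraries hold 3 hairpins, so the check does not part a hairpin from a library. Without the first H1 KD3 library, the SPP1 value for H1 KD3 was -2.96.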

How the results depend on the processing

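No paired analysis was possible because the labels give no replicate numbers. Counts of receptor genes called that moved were, over both lines (0), 1 with DESeq2 and 2 with group means. For H1 KD1 (0) they were 2 without a filter, 1 with DESeq2 and 2 with the GC and length trend removed; for H1 KD2 (0) they were 2, 2 and 2, and for H1 KD3 (1) they were 3, 2 and 2 under the same settings. Among the H1 hairpins (0 members called) they were 2, 3 and 1. For the difference between lines in the effect, 0 receptor genes were called in the main fit, without a filter and with DESeq2. SPP1 is not counted there, because its falls chose it. Leaving out 1 library gave 0 to 2 receptor genes in the H1 average, 0 to 2 with KD3, 0 to 0 over both lines, with KD1, with KD2 and among the hairpins, 6 to 6 members between the lines and 0 to 1 in the effect difference. The fits without MEL1 SCR or MEL1 KD2 could not be made for the last 2. The 1 in the effect difference is SPP1, whose falls chose it, so that count carries no test.

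Values near 0 that changed sign were ITGAV over both lines (0.05 in H1 alone) and in the H1 average (0.01 with upper-quartile scaling), ITGB5 with KD1 (-0.04 with the trend removed), and ITGB1. ITGB1 between the lines was 0.03 with median-of-ratios scaling and DESeq2, 0.01 with a minimum of 1 CPM and 0.04 with the trend removed. Its effect difference was -0.07, -0.10, -0.05 and -0.07 with median-of-ratios scaling, upper-quartile scaling, a minimum of 1 CPM and DESeq2. With 1 library left out, ranges that crossed 0 were -0.49 to 0.04 and -0.33 to 0.39 for ITGAV over both lines and in the H1 average, -0.15 to 0.57 for ITGAV with KD2, -0.05 to 0.05 and -0.15 to 0.12 for ITGB1 between the lines and in the effect difference, -0.01 to 0.13 for ITGB5 with KD1, and -0.38 to 0.02 for ITGA9 over both lines. The causes were not tested.

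Over all genes, the 53 calls over both lines became 80 without a filter, 87 with a minimum of 1 CPM, 108 with the trend removed, 175 in H1 alone, 1246 with DESeq2 and 2777 with group means, and 11 to 280 with 1 library left out. The 1783 calls of the H1 average became 3256 without a filter, 2696 with DESeq2 and 2978 with the trend removed, and 123 without the second H1 SCR library, 827 and 848 without the first or second H1 KD1 library, 916 without the second H1 KD2 library, 920 without the first H1 SCR library and 1118 without the second H1 KD3 library. The 149 calls of the effect difference became 1369 without a filter, 751 with DESeq2, 460 with the trend removed, 82 to 97 with other scalings, a minimum of 1 CPM or a fit that was not robust, and 34 to 148 with 1 library left out. Calls for H1 KD1 (2758), KD2 (384), KD3 (741) and the differences among hairpins (881) became 4160, 1745, 2290 and 3384 without a filter, and 206 to 2766, 64 to 400, 108 to 881 and 154 to 1139 with 1 library left out. DESeq2 and removal of the trend gave 1149 and 1054 for KD2, 1675 and 1874 for KD3, and 2224 and 1800 among hairpins. The shares of all genes printed beside the members move with these counts. Scaling moved the median of all genes by at most 0.10 on the log2 scale. Each group has at most 2 libraries, MEL1 SCR was the shallowest at 15963241 counts, and ITGB3 did not pass the filter on low counts.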

Other observations

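Markers of bone and connective tissue were also read, since osteopontin is best known from osteoblasts. Of 6 osteoblast markers, 4 were tested and 0 passed over both lines or in the H1 average by edgeR or DESeq2. In each comparison 1 was under an unadjusted edgeR p of 0.05, as were 15.7% and 23.2% of all tested genes. The sum is nearly all ALPL (158 to 318 CPM over the 12 libraries), which pluripotent cells also express. Their summed level was 175 to 190 CPM with H1 SCR, 160 to 198 CPM with the H1 hairpins, 256 CPM with MEL1 SCR and 230 to 319 CPM with the MEL1 hairpins. Of 6 mesenchyme markers, all tested, 0 passed in either comparison by edgeR or DESeq2, with 0 under an unadjusted p of 0.05. Their summed level was 876 to 1080 CPM with H1 SCR and 647 to 1320 CPM with the H1 hairpins.

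In MEL1, KD2 and KD1 differed in direction for several of the genes followed here. ITGA5, ITGA9, ITGA8 and FN1 were higher in the MEL1 KD2 library (106, 9.42, 16.2 and 378 CPM) than in MEL1 SCR (64.5, 5.04, 1.98 and 273 CPM), while in the MEL1 KD1 libraries ITGA5, ITGA9 and FN1 were lower than in MEL1 SCR. SPP1, CD44 and POU5F1 were lowest of the MEL1 libraries in KD2, at 30.8, 3.85 and 240 CPM. MEL1 KD2 is 1 library, so hairpin and library cannot be told apart.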
